A study of Bos taurus with 20 samples.

Results

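The epidermal growth factor (EGF) network of the bovine ovarian follicle was described through 9 genes. They were the ligands AREG, EREG, BTC, HBEGF and TGFA, the receptors EGFR, ERBB2 and ERBB3, and ADAM17, the protease that sheds several of these ligands from the cell surface. Members were the non-control probes of a custom bovine Agilent array that carry one of these gene names. By name, 8 of the 9 genes were found among the 22550 genes and transcripts of the array. The probes of AREG carry no gene name and were matched through their RefSeq accession, which made 9 members measured by 22 probes. Total RNA was hybridised on 20 arrays, 4 biological replicates each of 5 kinds of sample from 3 to 6 mm follicles of slaughtered cattle. These were the theca layer (TH), granulosa (GC), cumulus (CC), oocytes, and CC detached after 4 h of in vitro maturation (IVM). TH, GC, CC and oocytes were all immature, that is, not exposed to IVM. The number of animals behind a replicate and the composition of the maturation medium of these samples are not given in the sources used here, and TH were obtained by scraping the wall of the follicle.

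EGF-like ligands are made as membrane-anchored precursors, are released by metalloproteases, and bind receptor tyrosine kinases of the ERBB family, which signal as pairs. ERBB2 has no ligand of its own, and ERBB3 has a weak kinase and binds neuregulins. In the follicle, amphiregulin (AREG), epiregulin (EREG) and betacellulin (BTC) are known as the signals that relay luteinising hormone from granulosa to cumulus cells before ovulation, and EGF receptor activity in cumulus is required for expansion of the cumulus matrix and resumption of meiosis.

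Each value below is the log2 processed signal of a gene, as the median over its spots, relative to the upper quartile of its array, so that 0 is the signal of a probe brighter than 75% of the array. Such values compare a gene between samples, not genes with each other. Between 49.3% and 68.7% of probes were well above background per array. The lowest share was that of oocyte replicate 2, on which the dimmest probe above background read -4.02, against -6.84 to -5.91 on the other oocyte arrays, so dim genes read higher on that array. The 16 arrays of immature cells lay on 2 slides, with replicates 1 and 2 of each cell type on slide 1 and replicates 3 and 4 on slide 2. The 4 arrays of CC after IVM lay alone on a slide of their own, so slide and IVM cannot be told apart. For bulk RNA, more transcript per cell and more cells with the transcript cannot be told apart either.

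The probes are 60 bases long. A few of them are printed here, for the ligands and receptors whose detection or whose agreement between probes the comparison rests on. They are written 5′ to 3′ in lower case as the array design gives them, and for AREG bases 1 to 40 of probe 1 are given, with the stop codon of its reading frame in capitals.
AREG, probe 1: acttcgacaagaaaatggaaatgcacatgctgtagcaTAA
EREG, probe 1: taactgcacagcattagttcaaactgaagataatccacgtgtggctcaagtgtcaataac
EREG, probe 2: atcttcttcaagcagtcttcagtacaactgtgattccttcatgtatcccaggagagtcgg
TGFA, probe 1: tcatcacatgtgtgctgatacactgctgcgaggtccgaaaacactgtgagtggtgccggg
EGFR, probe 2: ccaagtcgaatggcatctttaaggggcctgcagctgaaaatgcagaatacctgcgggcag
ERBB2, probe 1: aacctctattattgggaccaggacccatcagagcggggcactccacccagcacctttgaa

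The 4 probes of ADAM17 hold 3 sequences that overlap, and they are shown because they differed in the size of the change after IVM. Probe 4 shares its last 44 bases with the start of probes 2 and 3, which are identical, and its first 16 bases with the end of probe 1. Capitals mark the longest stretch shared with another probe of the gene.
ADAM17, probe 1: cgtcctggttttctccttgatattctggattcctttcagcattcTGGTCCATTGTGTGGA
ADAM17, probe 4: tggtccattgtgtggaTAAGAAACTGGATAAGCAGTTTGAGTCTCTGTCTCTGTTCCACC
ADAM17, probes 2 and 3: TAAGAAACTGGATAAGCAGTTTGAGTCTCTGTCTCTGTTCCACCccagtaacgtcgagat

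The first question was how the members differ between CC after 4 h of IVM and immature CC. All 9 members passed the test of this comparison (limma, Benjamini-Hochberg adjustment over all genes, adjusted p under 0.05), 6 with higher and 3 with lower values after IVM. The background of this comparison was large, since 45.8% of all genes were called, 30.3% higher and 15.5% lower. The higher call of TGFA was made among values below background. The ligands AREG, EREG and HBEGF moved most among the members, while the median difference of all genes was 0.37 on the log2 scale. Within each gene the 4 arrays after IVM did not overlap the 4 CC arrays, in a comparison where 44% of all genes had such separate ranges.

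**Figure D1:**
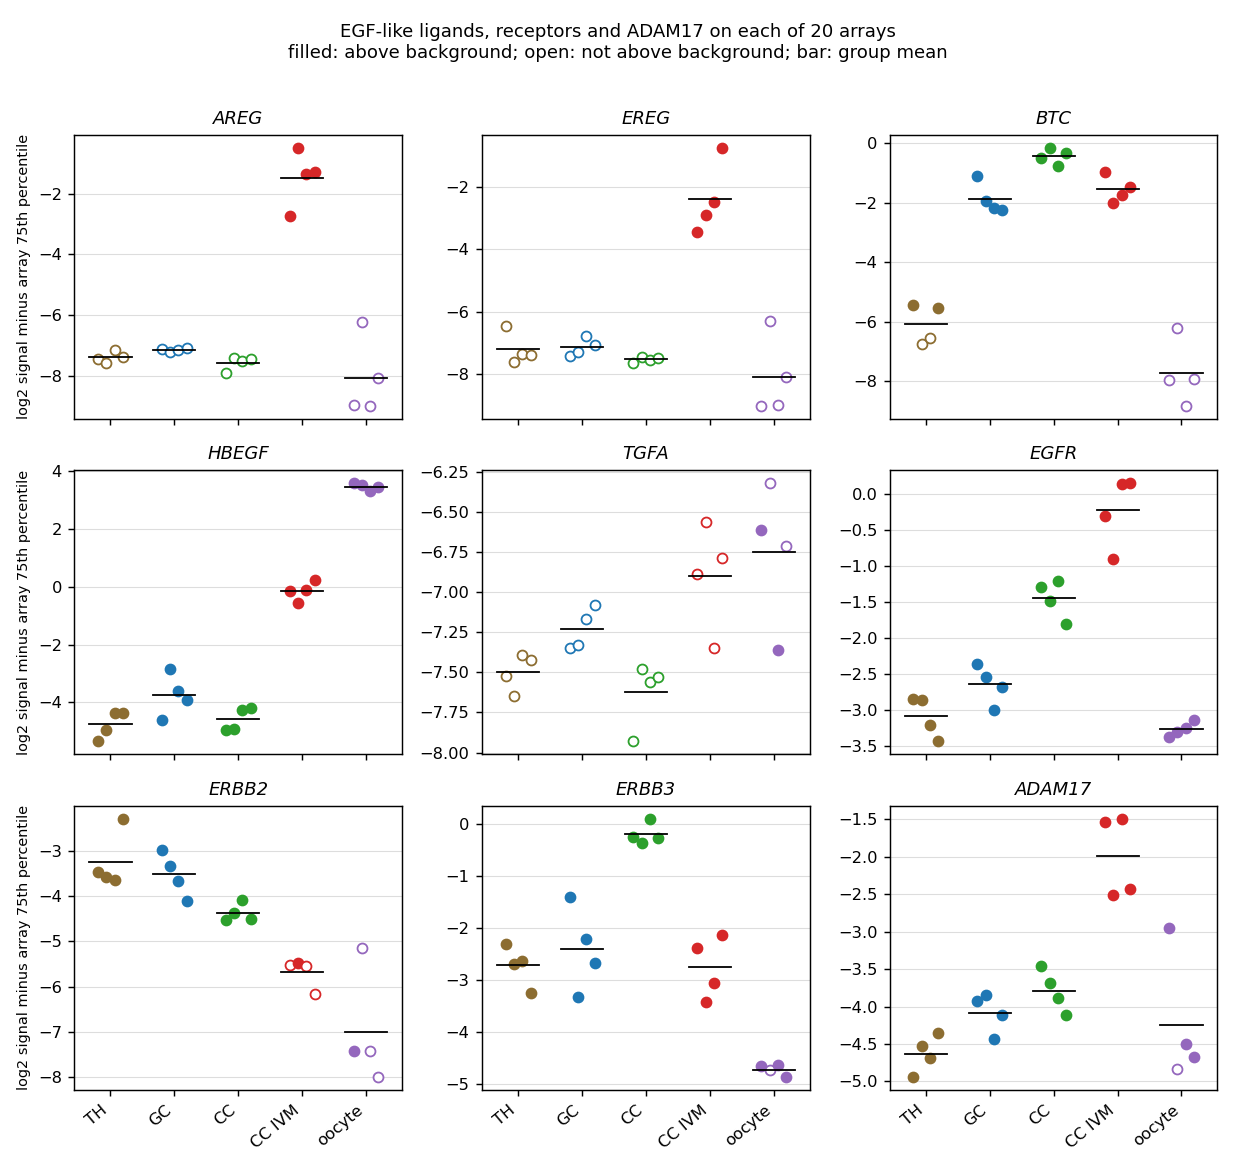
Normalised log2 signal (log2 processed signal relative to the upper quartile of the array) of the 9 members on each of the 20 arrays, with 4 arrays per group, the group mean as a bar, and open symbols where no probe of the gene was above background; each panel has its own axis. AREG and EREG have filled symbols only in CC after IVM, HBEGF is highest in oocytes at 3.28 to 3.57, and ERBB3 is highest in immature CC at -0.36 to 0.10.

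AREG, on chromosome 6 (chr6:91126256-91138391 on the bovine build UMD 3.1, as all positions here), encodes amphiregulin. It was above background on none of the 16 arrays of immature cells, and on all 4 arrays of CC after IVM. Its values after IVM were -2.74, -0.47, -1.35 and -1.29 for replicates 1 to 4. In CC they read -7.91, -7.40, -7.52 and -7.45, which are background values. Replicate 1 was the lowest of the matured samples and still far above every other array of the series. The difference was 6.11 ± 0.41 (standard error, n = 4 arrays per group, limma adjusted p = 9.8e-06). Since CC gave only a bound, AREG was at least 15.4-fold higher after IVM in the processed signal. The bound takes the dimmest signal above background of each CC array in place of the unmeasured value. Against TH, GC and oocytes the same bounds were at least 14.2-fold, 11.9-fold and 21.7-fold. They hold for the processed signal alone. Other ways of removing background gave differences to CC, listed below with HBEGF, that were smaller than the bound of 3.95 on the log2 scale. Both probes rose, by 5.84 and 6.37.

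EREG encodes epiregulin and lies at chr6:91065006-91071187, next to AREG. It too was above background on none of the 16 arrays of immature cells. After IVM it read -3.45, -2.90, -2.49 and -0.73, and in CC -7.64, -7.44, -7.55 and -7.50. The matured samples spread over a wider range for EREG than for any other member, with replicate 4 the highest, and all 4 stood above the CC arrays. The difference was 5.14 ± 0.49 (limma adjusted p = 6.1e-05), a rise of at least 8.12-fold by the same bound on the processed signal. The replicate that was highest for EREG was not the highest for AREG, which was replicate 2.

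HBEGF, at chr7:53216665-53227848, encodes the heparin-binding EGF-like growth factor. In CC it was above background on all 4 arrays, at -4.96, -4.91, -4.25 and -4.20. After IVM the arrays read -0.15, -0.56, -0.12 and 0.24, so that every matured sample lay above every CC sample by a wide gap. The difference was 4.43 ± 0.26, or 21.6-fold (limma adjusted p = 6e-06), and both probes rose, by 4.26 and 4.61. Among the ligands that rose, HBEGF was the one with a measured level on both sides, and its fold change is therefore not a bound. The size of these rises depended on how background was removed. With the normexp correction they were 2.35 for AREG, 1.85 for EREG and 2.71 for HBEGF, and from the log2 values that were deposited they were 2.68, 2.07 and 2.89, all past the threshold.

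BTC was the ligand that fell. It lies at chr6:91430305-91480129 and encodes betacellulin. CC read -0.51, -0.15, -0.77 and -0.32, and CC after IVM -0.99, -2.00, -1.73 and -1.47. The ranges were close but separate, with the highest matured sample, replicate 1, just under the lowest CC sample. The difference was -1.11 ± 0.25 (limma adjusted p = 0.0081), a 2.16-fold lower signal after IVM, and the probes fell by 1.25 and 0.97. With all 20 arrays in 1 fit the size was the same and the call was lost (adjusted p = 0.057).

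TGFA, at chr11:13969792-13984394, encodes transforming growth factor alpha. No probe of it was above background on any CC array or any array of CC after IVM. It read between -7.93 and -7.48 in CC and between -7.35 and -6.56 after IVM. The difference of 0.73 (limma adjusted p = 0.026) was close to 0.68, the median difference of the 4461 genes that, like TGFA, were above background on none of these 8 arrays. Of those genes 62.3% were called, 2773 higher and 5 lower. No change of TGFA can therefore be read from these arrays.

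Among the receptors, EGFR rose. The gene lies at chr22:892005-1069280 and encodes the receptor that AREG, EREG, BTC, HBEGF and TGFA all bind. CC read -1.29, -1.49, -1.21 and -1.81. After IVM the arrays read -0.31, -0.90, 0.14 and 0.15, all above the CC arrays. The difference was 1.22 ± 0.27, or 2.32-fold (limma adjusted p = 0.0072). Probe 1 rose by 1.01 and probe 2, printed above, by 1.42.

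ERBB3 fell. It lies at chr5:57539933-57560884 and encodes the receptor that pairs mainly with ERBB2. CC read -0.26, -0.36, 0.10 and -0.28, and the matured samples -2.38, -3.43, -3.06 and -2.13. The gap between the groups was wider than the spread within either. The difference was -2.55 ± 0.30, a 5.84-fold lower signal (limma adjusted p = 0.00019). All 4 probes fell, with differences of -2.73 to -2.36, but they hold only 2 sequences that share 41 bases and are not independent measurements.

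ERBB2, at chr19:40722051-40745987, encodes the receptor without a ligand. It was near the limit of the array in cumulus. CC read -4.52, -4.38, -4.08 and -4.50, all above background, and CC after IVM -5.52, -5.48, -5.54 and -6.17, of which only replicate 2 was above background. The difference was -1.31 ± 0.22 (limma adjusted p = 0.0016). The probes disagreed in part, since probe 2 fell by 1.79 and probe 1 gave -0.83 without passing the test (adjusted p = 0.068). The fall also depended on how background was removed, being -0.22 (adjusted p = 0.088) in the deposited table and 0.30 (adjusted p = 0.029), in the opposite direction, with the normexp correction.

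ADAM17, at chr11:87898074-87940943, encodes the main sheddase of AREG, EREG, HBEGF and TGFA. CC read -3.46, -3.69, -3.88 and -4.12, and after IVM the arrays read -1.54, -2.51, -1.49 and -2.43. Every matured sample was above every CC sample. The difference was 1.79 ± 0.29, or 3.47-fold (limma adjusted p = 0.0013). All 4 probes rose, the overlapping probes 2, 3 and 4 by 1.96, 1.85 and 2.16, and probe 1, which shares 16 bases with probe 4, by 0.93.

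**Figure D2:**
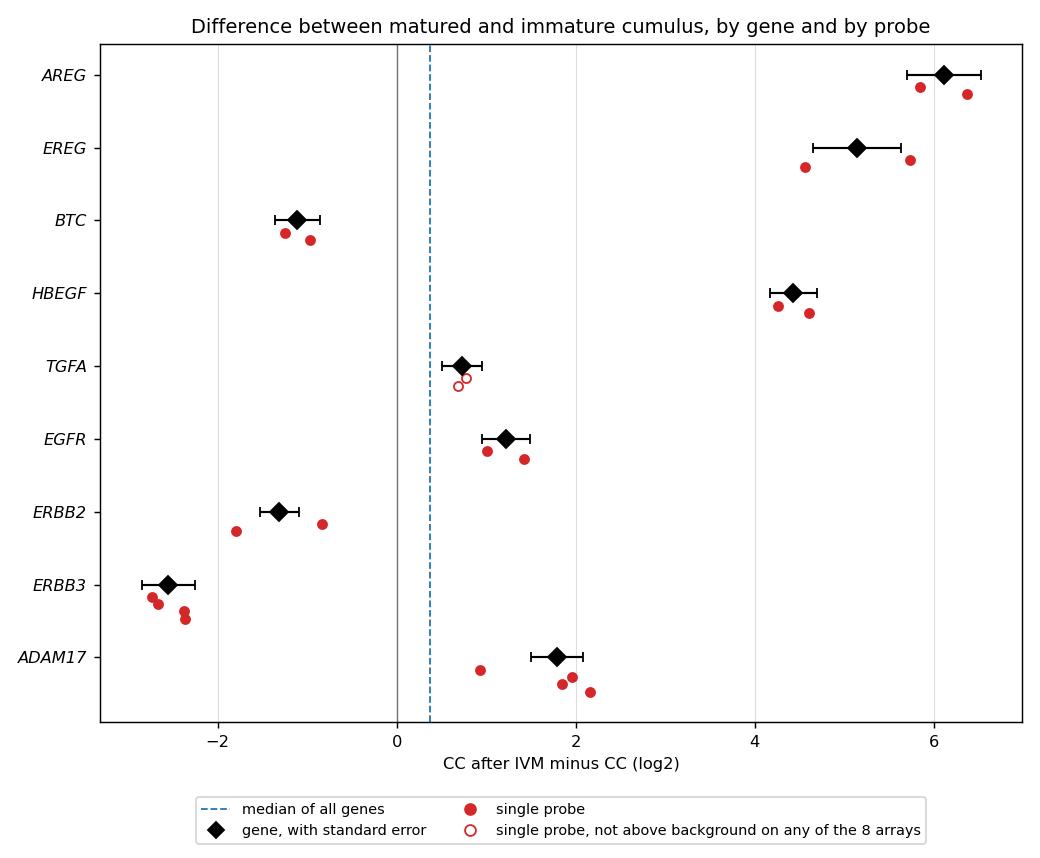
Difference between CC after IVM and CC on the log2 scale for each member, with diamonds and standard errors for the gene and circles for single probes (open where a probe was above background on none of the 8 arrays); the dashed line is the median of all genes, 0.37. AREG, EREG and HBEGF lie above 4, EGFR and ADAM17 between 1 and 2, and BTC, ERBB2 and ERBB3 below 0 for every probe.

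The next question was where the members are expressed among TH, GC, CC and oocytes before maturation. Over these 4 cell types, 6 of the 9 members differed (limma F-test, adjusted p under 0.05), against 71.3% of all genes. Those not called were ADAM17 (adjusted p = 0.16) and the ligands AREG and EREG, which had no level above background there. Without oocyte replicate 2 the count was 8, and member calls over the 6 pairs of cell types went from 24 to 31. Of the 6 called, TGFA was above background on 2 oocyte arrays and nowhere else. By group mean the remaining 5 had 3 kinds of order, with HBEGF highest in oocytes, BTC, EGFR and ERBB3 highest in CC, and ERBB2 highest in TH. The highest group was not told apart from GC for BTC (limma adjusted p = 0.069) and ERBB2 (adjusted p = 0.74).

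HBEGF in oocytes read 3.57, 3.49, 3.28 and 3.42. In TH it read -5.34, -4.96, -4.36 and -4.36, in GC -4.59, -2.84, -3.61 and -3.91, and in CC as given above. Oocytes thus stood apart from every somatic sample, with the smallest spread of the 4 cell types (SD 0.13). The oocyte signal was 8.02 ± 0.33 above CC (260-fold, limma adjusted p = 6.7e-12), 7.18 above GC (adjusted p = 2.5e-11) and 8.20 above TH (adjusted p = 5.2e-12). Within slide 1 and within slide 2 the difference to CC was 8.47 and 7.58. Over the alternatives the oocyte signal was at the least 6.20 above CC, 5.73 above GC and 6.19 above TH, with all calls kept. The somatic types were closer to each other. GC exceeded TH by 1.02 (adjusted p = 0.031), which did not pass within either slide (1.43 and 0.61, adjusted p = 0.19 and 0.13), and CC was told apart from neither, at -0.85 from GC (adjusted p = 0.14) and 0.17 from TH (adjusted p = 0.80). The probes disagreed in TH. Probe 1 averaged -3.93 there and was above background on 4 arrays, and probe 2 averaged -5.58 and was so on 1. The brightest probe alone put GC 0.30 above TH (limma adjusted p = 0.73). After IVM, CC lay between both levels, 3.59 above GC (adjusted p = 5.6e-08) and 3.59 below oocytes (adjusted p = 4.8e-09).

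BTC had its lowest values in oocytes. It was above background on no oocyte array, on 2 of 4 TH arrays (-5.44 and -5.53 for replicates 1 and 4) and on all arrays of GC and CC. GC read -1.10, -1.94, -2.19 and -2.25. In the processed signal CC was at least 44.1-fold and GC at least 16.4-fold higher than oocytes (5.46 and 4.03 on the log2 scale). Over the alternatives the differences of oocytes from CC and GC were as small as -4.39 and -3.35, less than these bounds in size. The fitted differences to TH rest on values below background for the other TH arrays. They were 5.63 ± 0.47 for CC (limma adjusted p = 1.9e-07) and 4.20 ± 0.47 for GC (adjusted p = 6.7e-06). Over the alternatives these differences to TH went down to 2.71 and 1.67 and stayed past the threshold. All 4 CC arrays were above all 4 GC arrays, by 1.43 on average, which missed the threshold (adjusted p = 0.069). The call was made in 8 of 31 alternatives, among them quantile normalisation (adjusted p = 0.0077), normexp (adjusted p = 0.0095), the deposited values (adjusted p = 0.00011) and the fit without oocyte replicate 2 (adjusted p = 0.014). CC after IVM differed from GC by 0.32 ± 0.44 (adjusted p = 0.63), so that neither CC nor CC after IVM was told apart from GC.

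EGFR was higher in CC than in the other immature cells. TH read -2.85, -2.87, -3.21 and -3.44, GC -2.37, -2.54, -3.00 and -2.69, and oocytes -3.38, -3.31, -3.26 and -3.15. All CC arrays exceeded all of these. CC was 1.2 ± 0.19 above GC (limma adjusted p = 0.00074), 1.64 above TH (adjusted p = 5.2e-06) and 1.83 above oocytes (as oocyte minus CC, -1.83, adjusted p = 3.2e-07). Within slides 1 and 2 the difference between CC and GC was 1.07 and 1.34 and did not pass with 2 arrays per group (adjusted p = 0.11 and 0.075). GC and TH (0.44, adjusted p = 0.10) and oocytes and TH (-0.18, adjusted p = 0.38) were not told apart. The place of the oocyte depended on the probe, as probe 1 read -1.60 in oocytes and -1.88 in TH, and probe 2 -4.96 and -4.30. CC and CC after IVM were thus at the upper end of the order, with the matured samples 2.42 above GC.

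ERBB3 had the sharpest maximum in CC of the receptors. TH read -2.31, -2.69, -2.64 and -3.24, GC -1.41, -3.32, -2.21 and -2.68, and oocytes -4.66, -4.73, -4.63 and -4.86, with oocyte replicate 2 not above background. CC was 2.20 ± 0.31 above GC (limma adjusted p = 4e-04) and 2.52 above TH (adjusted p = 1.3e-05), and oocytes were 4.52 below CC (difference -4.52, adjusted p = 3.1e-09). Within slide 1 the differences of CC to GC and TH were 2.05 and 2.19 without passing (adjusted p = 0.21 and 0.061), and within slide 2 they were 2.35 and 2.85 (adjusted p = 0.020 and 0.0013). After IVM its level was not told apart from that of the other somatic cells, with a difference of -0.34 ± 0.34 from GC (adjusted p = 0.51) and -0.03 ± 0.34 from TH (adjusted p = 0.95).

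ERBB2 read -3.46, -3.57, -3.64 and -2.29 in TH and -2.98, -3.34, -3.66 and -4.11 in GC. TH and GC overlapped, CC lay below TH, and no pair of them passed the test, with a difference of -1.13 between CC and TH (limma adjusted p = 0.10), a call that was made without oocyte replicate 2 (adjusted p = 0.0090). In oocytes 1 of 4 arrays was above background, and the values of -7.42, -5.14, -7.42 and -7.99 lay below all immature somatic samples. Oocytes differed from CC by -2.63 ± 0.49 (adjusted p = 0.00021), which was -3.24 without oocyte replicate 2 and did not pass within slide 1 (-1.83, adjusted p = 0.070).

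ADAM17 read -4.94, -4.53, -4.69 and -4.36 in TH, -3.93, -3.85, -4.43 and -4.12 in GC, and -2.95, -4.84, -4.50 and -4.68 in oocytes. These ranges overlapped. The 4 CC arrays lay above the 4 TH arrays by 0.84 without passing (limma adjusted p = 0.067), and that call was made in 7 of 31 alternatives, among them quantile normalisation (adjusted p = 0.013), the brightest probe alone (1.89, adjusted p = 0.00027) and the fit without oocyte replicate 1 (adjusted p = 0.0032). CC after IVM was higher than all of these, by 2.64 over TH (adjusted p = 3.8e-06), 2.09 over GC (adjusted p = 9.8e-05) and 2.25 over oocytes (adjusted p = 9.2e-06).

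Between pairs of immature cell types, 2 to 6 of the 9 members were called, given here beside the share of all genes. CC and GC differed in 2 of 9 members, EGFR and ERBB3, against 9.88% of all genes. GC and TH differed in 2 (26.3% of all genes), CC and TH in 3 (31.8%), and oocytes differed in 5 from TH (64.6%), in 6 from GC (68.6%) and in 6 from CC (63.7%), TGFA included each time. CC after IVM differed in 8 members from TH (43.7%), in 6 from GC (28.1%) and in 8 from oocytes (80.2%). The 8 against TH include TGFA, above background on no array of either group, and the 8 against oocytes include ERBB2, above background on 1 array of each. These comparisons share arrays and are not independent of each other.

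**Figure D3:**
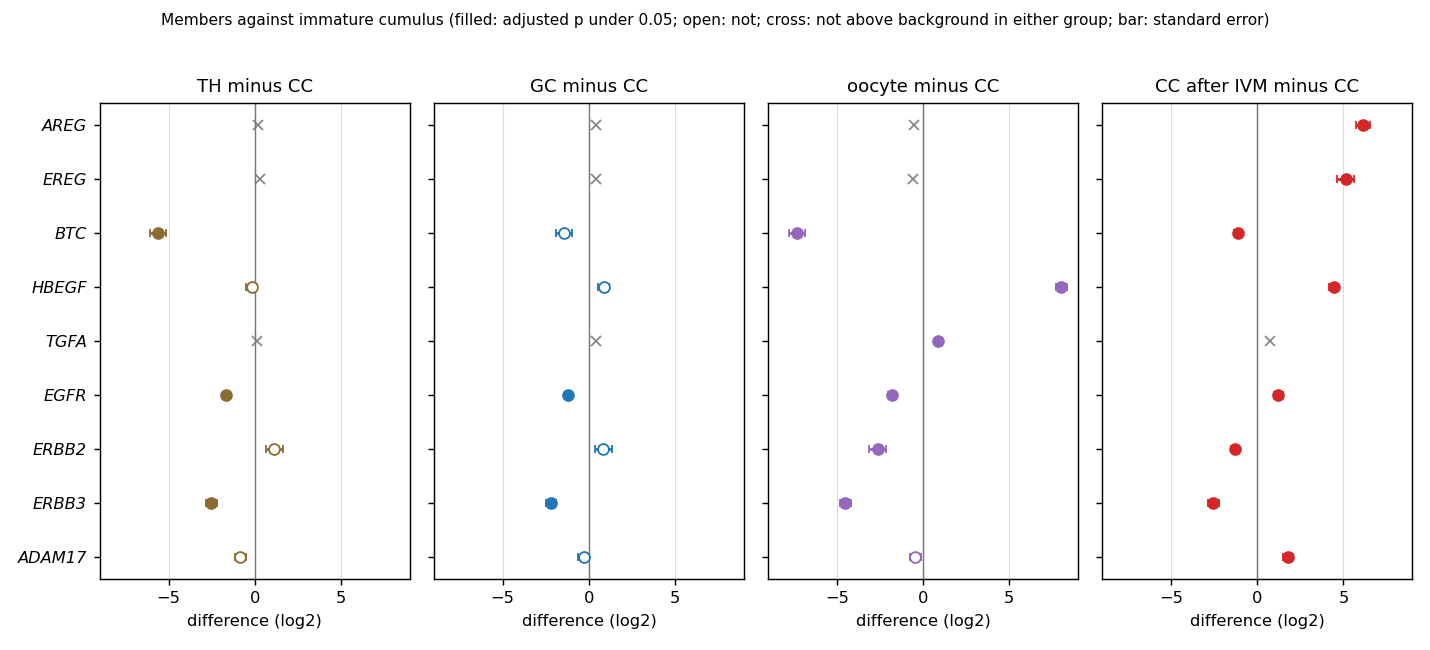
Difference of TH, GC, oocytes and CC after IVM from immature CC for each member on the log2 scale, with standard errors; filled circles passed the test (limma, adjusted p under 0.05), open circles did not, and crosses mark genes above background in neither group. The same CC arrays enter all 4 panels; HBEGF is 8.02 higher in oocytes and 4.43 higher after IVM, and ERBB3 is lower than in CC in all 4 panels.

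AREG, EREG and BTC share their place in the genome. EREG and AREG are 55.1 kb apart, BTC begins 291.9 kb beyond AREG, and EPGN, the gene of the ligand epigen, ends 68.2 kb before EREG. The array holds 13 genes from 500 kb before EREG to 500 kb beyond BTC, a window chosen after the values of the members were known. EPGN was above background on 1 CC array and 1 array after IVM and was not called (1.28 ± 0.53, limma adjusted p = 0.071). Between EPGN and the chemokine genes lies MTHFD2L, an enzyme of folate metabolism, which was not called (-0.51, adjusted p = 0.14). Of the CXC chemokine genes farther on, CXCL2 was above background on no CC array. By the bound on the processed signal it rose at least 17.1-fold (adjusted p = 4.2e-05) and GRO1 at least 4.38-fold (adjusted p = 1.2e-05). Over the alternatives their log2 differences went down to 2.55 and 1.58, less than these bounds. CXCL6, listed as CXCL5 by RefSeq and above background on 1 CC array, rose by 6.45 ± 0.68 (adjusted p = 0.00011). Its values after IVM were -1.74, 1.22, -0.18 and -2.54. CXCL3, above background on all 8 arrays, differed by 0.55 (adjusted p = 0.23). PPBP and PF4, called higher by 0.95 and 1.6, were above background on none of the 8 arrays and on 2 arrays after IVM. CXCL2, CXCL3, GRO1 and CXCL6 encode chemokines that attract neutrophils. The chemokine genes of this window are close paralogs and may share signal between probes. On the other side of BTC, PARM1, which the array names DKFZP564O0823, rose by 2.41 (adjusted p = 0.00024). BTC, between AREG and PARM1, was the one called gene of the window that fell.

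**Figure D4:**
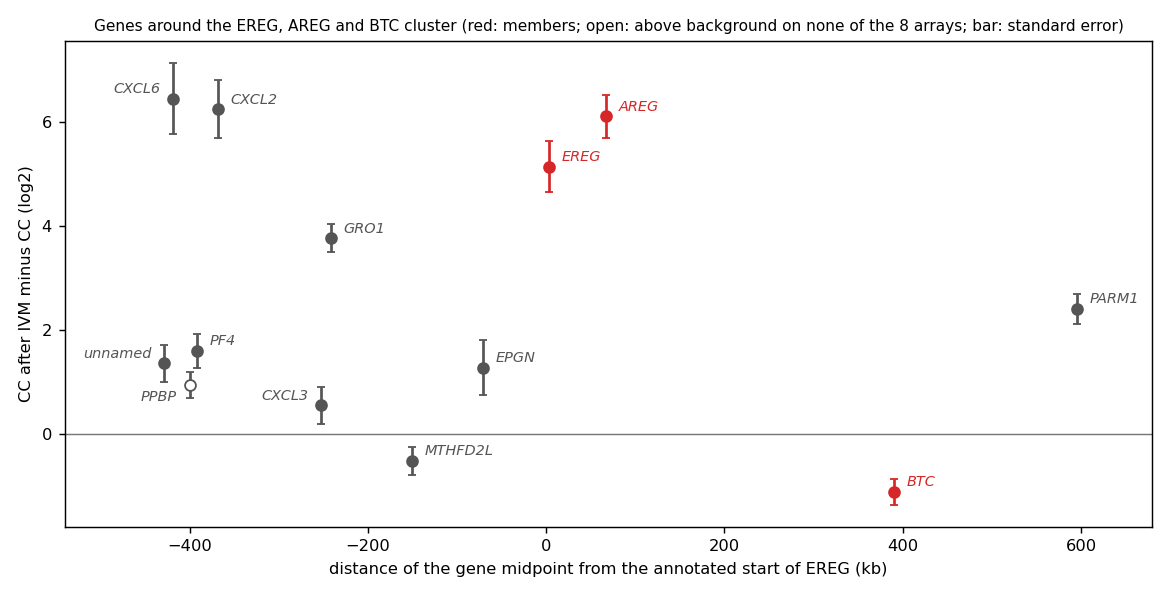
Difference between CC after IVM and CC (log2, with standard error) for the 13 genes of the array around EREG, AREG and BTC, against the distance of each gene's midpoint from the annotated start of EREG in kb; members are red and an open circle marks a gene above background on none of the 8 arrays. EREG and AREG lie at 5.14 and 6.11, EPGN at 1.28 and BTC at -1.11.

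Over the 20 arrays, the genes whose values ran most like each member were sought among 17430 genes with signal above background on at least 3 arrays of a group. AREG ran with SCGB1D (Pearson r = 0.989) and GLDN (r = 0.982), and EREG with GLDN (r = 0.983). BTC ran with KLHL31 (r = 0.98), TLL2 (r = 0.976) and GREB1 (r = 0.975). EGFR ran with TTC39B (r = 0.979), ERBB2 with COL4A6 (r = 0.959), CARD6 (r = 0.946) and LRRC27 (r = 0.942), ERBB3 with CTNNB1 (r = 0.937), DLL4 (r = 0.934) and P4HTM (r = 0.932), and ADAM17 with SRGAP2 (r = 0.923), METTL20 (r = 0.918) and CSNK1G2 (r = 0.917). The 3 transcripts nearest to HBEGF (r = 0.985 to 0.988) and the others nearest to AREG, EREG and EGFR have no gene symbol on the array. Such correlations are set mainly by the differences between the 5 groups, which the arrays of a group share, and are given as a description.

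Around the members, 52 of the 54 other genes listed for the network were on the array, and 43 of them were above background on at least 3 arrays of CC or of CC after IVM. After IVM 17 were higher, 10 were lower and 25 were not called, or 51.9% called against 45.8% of all genes. Their median difference was 0.34, against 0.37 for all genes and 0.01 for the 14760 genes above background on at least 3 arrays of either group, of which 45.3% were called. The values that follow are for single genes.

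EGF itself and NRG4, also listed, were not found among the genes of the array. None of the 4 other ligands measured (EPGN, NRG1, NRG2 and NRG3) was called, nor was the receptor ERBB4 (0.72 ± 0.52, limma adjusted p = 0.28). NRG3 was above background on no array of either group and EPGN on 1 array of each. Of the shedding genes, ADAM10, the other main sheddase of the family, fell by 0.80 (adjusted p = 0.025), RHBDF1, which guides ADAM17 to the cell surface, fell by 1.73 (adjusted p = 0.0049), and TIMP3, an inhibitor of ADAM17, rose by 1.63 (adjusted p = 0.0064). ADAM17 thus rose together with TIMP3 while ADAM10 fell. RHBDF2, called higher by 0.57 (adjusted p = 0.030), was above background on 2 arrays of each group.

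Of 15 adaptors and kinases between the receptor and ERK, 6 were higher, 1 was lower and 8 were not called. GAB1, the docking protein that carries the receptor's signal to PI3 kinase, fell by 3.39 ± 0.33 (limma adjusted p = 6.7e-05), from between -1.36 and -0.54 in CC to between -5.3 and -3.83 after IVM. Among those higher, MAP2K1, the kinase of ERK, rose by 1.88 (adjusted p = 0.00012), BRAF by 1.47 (adjusted p = 0.00053), NRAS by 1.05 (adjusted p = 0.0026), GRB2 by 0.93 (adjusted p = 0.012) and PTPN11 by 0.74 (adjusted p = 0.026). MAPK3, which encodes an ERK, was not called (-0.02).

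Of 11 attenuators of the pathway, 5 were higher and 3 lower. DUSP6, the phosphatase of ERK whose transcript follows ERK activity, fell by 3.40 ± 0.37 (limma adjusted p = 0.00012), from 3.70 to 4.27 in CC to -0.44 to 1.48 after IVM. SPRY1 fell by 1.42 (adjusted p = 0.0037) and LRIG1, which marks receptors for degradation, by 1.68 (adjusted p = 0.0023), though LRIG1 read 0.16 under normexp. SH3KBP1, an adaptor of receptor endocytosis, rose by 1.77 (adjusted p = 0.0021) and the ubiquitin ligase CBLB by 1.34 (adjusted p = 0.024). CBL, SPRY4 and SPRED2, also called higher by 0.94 to 1.09, were above background on at most 1 of the 8 arrays, where the values of genes below background were shifted by 0.68. ERRFI1, an inhibitor of EGFR, was not called (-0.74, adjusted p = 0.084).

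Of 5 targets in cumulus expansion, 2 rose and 3 were not called. HAS2, the synthase of the hyaluronan of the expanding matrix, read -5.13, -6.31, -4.79 and -6.02 in CC, with replicates 2 and 4 not above background, and 2.59, 1.5, 1.94 and 2.77 after IVM. The difference was 7.76 ± 0.40 (limma adjusted p = 3.3e-06). TNFAIP6, which links hyaluronan to proteins, rose by 2.03 ± 0.51 (adjusted p = 0.013). PTGS2 (-0.04, adjusted p = 0.93), PTX3 (-0.11, adjusted p = 0.86) and VCAN (0.30, adjusted p = 0.58) were not called at 4 h.

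Of 6 immediate early genes, 1 rose and 3 fell. FOSL1 rose by 3.84 ± 0.29 (limma adjusted p = 1.7e-05) and was above background on 1 CC array and on all 4 after IVM. FOS fell by 2.48 (adjusted p = 0.00072), MYC fell by 2.51 (adjusted p = 6.9e-05) and EGR1 fell by 1.3 (adjusted p = 0.027), and JUNB (-0.13) and ATF3 (0.39) were not called. Among the 6 inputs from gonadotrophins and prostaglandins, FSHR fell by 1.25 (adjusted p = 0.028), with overlapping ranges and 0.07 for its brightest probe alone. LHCGR, called higher by 0.54 (adjusted p = 0.042), was above background on 2 CC arrays and on none after IVM, so no direction is read.

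**Figure D5:**
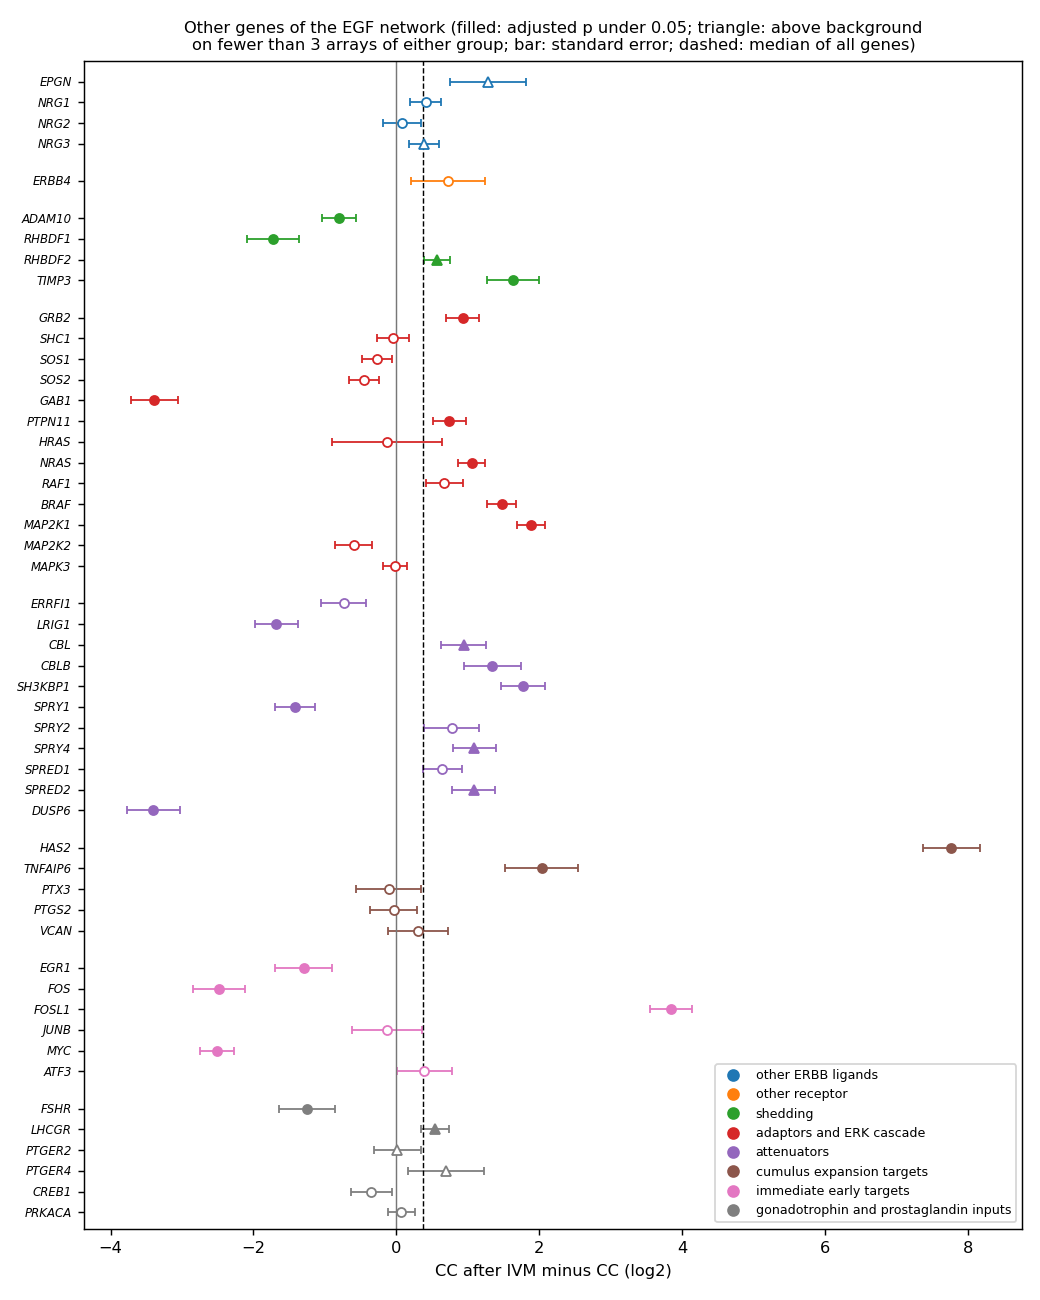
Difference between CC after IVM and CC on the log2 scale, with standard errors, for 50 of the 52 other network genes measured, coloured by list; filled symbols passed the test (limma, adjusted p under 0.05), triangles were above background on fewer than 3 arrays of either group, and the dashed line is the median of all genes. HAS2 at 7.76 and FOSL1 at 3.84 lie farthest to the right, DUSP6 at -3.40 and GAB1 at -3.39 farthest to the left.

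Markers of the cells a cumulus sample could hold moved between both groups as well. The granulosa and cumulus markers (FSHR, CYP19A1, AMH and INHBA) were above background on every array of CC and CC after IVM, with a mean of 3.99 to 4.40 per array in CC and 3.06 to 3.90 after IVM. They did not move together. INHBA rose by 1.07 (limma adjusted p = 0.0011). AMH fell by 1.04 (adjusted p = 0.018), FSHR by 1.25 (adjusted p = 0.028) and CYP19A1 by 1.26 (adjusted p = 0.032). CYP19A1 lost its call in 11 of 21 alternatives. Of the 6 oocyte markers (GDF9, BMP15, ZP2, ZP3, ZP4 and NLRP5), all were above background on the 4 CC arrays and 2 were so on all 4 arrays after IVM, with means of -3.61 to -1.38 and -5.56 to -3.57, against 5.14 to 5.53 in oocytes. Of these markers, 4 were called lower and none higher after IVM. ZP3 (limma adjusted p = 0.049, overlapping ranges) lost its call in 11 of 21 alternatives, NLRP5 in 7 and ZP2 in 1. Of the 4 blood and leukocyte markers, CD68 rose by 2.15 (limma adjusted p = 0.0019). CD14 was called higher by 2.33 (adjusted p = 0.043) with overlapping ranges and lost that call in 10 of 21 alternatives. PTPRC and HBB were called higher by 0.70 and 1.36 (adjusted p = 0.024 and 0.031), and lost these calls in 6 and 8 of 20 alternatives. PTPRC was above background on none of the 8 arrays and HBB on 2 of the matured ones. The mean of the 4 markers was -5.67 to -4.84 in CC and -4.32 to -3.34 after IVM. Of the 3 endothelial markers, VWF was called higher by 1.72 (limma adjusted p = 0.0039) and kept that call in 21 of 21 alternatives. It was above background on 1 CC array and 3 matured ones. CDH5, called higher by 0.71 (adjusted p = 0.023), was above background on none of the 8 arrays. PECAM1, above background on no CC array and 1 matured one, was not called (1.14, adjusted p = 0.053). The means of the 3 markers were -7.28 to -6.65 in CC and -6.15 to -5.10 after IVM. The 5 theca markers had means of -1.18 to -0.19 and -1.33 to 0.04, and none was called. CYP17A1 was above background on none of these arrays, but INSL3, COL1A1 and ACTA2 were above background on all 8. Their group means in CC were 4.54, 2.13 and 0.27, and after IVM 4.39, 1.03 and -0.15. COL1A2 was above background on 4 CC arrays and 3 matured ones. The part of these cells in the differences of the members was not tested.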

How the data were processed

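The authors labelled 200 ng of total RNA per sample with Cy3 and deposited, for each array, the Feature Extraction 10.7.3.1 output with spot intensity, background and processed (background-subtracted, detrended) signal, probes annotated on UMD 3.1, and 1 table of log2 values. Set against the scanner values, that deposited log2 table was the median spot signal minus the array median, without background subtraction (largest deviation 5e-09). Its use is an alternative.

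Control spots and outlier spots were left out, and log2 processed signal minus the array's 75th percentile was summarised as the median over a gene's spots. Of 61325 probes, 9779 had no gene name and 734 of these were named by RefSeq accession. PTGS2 and TNFAIP6 carry the older names PGHS-2 and TSG-6 on the array. Limma 3.58.1 (lmFit, eBayes; R 4.3.3) compared CC after IVM with CC on 8 arrays, the immature cell types on 16, and CC after IVM with TH, GC and oocytes on 20, with Benjamini-Hochberg adjustment over 22550 genes and a threshold of 0.05. A gene was above background where a probe was marked so. Figures were drawn with matplotlib 3.10.9. The models were tested on simulated data. Precision is limited by 4 arrays per group.

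Members and lists were chosen with earlier results of these data known. All members are named, with the 3 best correlated genes each and the network genes past the threshold; genes not called, neighbours on chromosome 6 and markers were added. The values of 2 genes of the network lists are not reported here. Replicate numbers did not pair CC with CC after IVM (correlation of same-numbered deviations -0.22 to -0.04). For TH and GC the same-numbered correlations were 0.31 to 0.43 in replicates 2 to 4, against at most 0.11 for other-numbered pairs. In replicate 1 the value was 0.15, below the highest other-numbered pair at 0.20, so pairing was not shown for it.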

Additional observations from a re-analysis of the deposited data

Results flagged for a closer look

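In 45 groups of 4 arrays (9 members in 5 groups), the gap of the highest or lowest array to its neighbour was compared with the range of the group, and 2 groups exceeded Dixon's critical value; chance alone gives about 1 in 20. ERBB2 in TH replicate 4 read -2.29 against -3.64 to -3.46 on the other TH arrays (gap 0.87 of the range), all above background. ERBB2 in CC after IVM replicate 4 read -6.17 against -5.54 to -5.48 (gap 0.92), in a group with 1 array above background.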

How the results depend on the processing

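Normalisation, background correction, summary over probes, filter, model and single arrays were varied. In 21 alternatives each, the calls and directions of AREG, EREG, HBEGF, EGFR, ERBB3 and ADAM17 after IVM were the same, with differences of 2.35 to 6.53, 1.85 to 5.73, 2.71 to 4.57, 0.65 to 1.44, -2.75 to -1.63 and 0.93 to 1.97. BTC lost its call in 1 alternative and TGFA in 5 of 20, among them quantile normalisation (0.11). The count of members changed was 8 to 9, that of other network genes 20 to 39, that of members differing between cell types 5 to 9, of member calls over the 6 pairs of cell types 18 to 36, and of those in CC after IVM against TH, GC and oocytes 21 to 23.

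Values that reversed came mostly from the normexp correction, which adds an offset of 50 to the signal. With it ERBB2 read 0.3, SOS1 0.33, LRIG1 0.16, BMP15 0.32 and MTHFD2L 0.48 after IVM, ADAM17 in oocytes against TH -0.55, and TGFA -1 in oocytes against TH, -1.39 against GC, -1.05 against CC and 1.73 in CC after IVM against oocytes. In the deposited table the values of TGFA were -0.22, -0.48, -0.27 and 0.8. LHCGR read -0.07 under quantile normalisation and -0.37 for its brightest probe, and FSHR 0.07 for its brightest probe. The cause of these reversals was not tested. ERBB2 after IVM also lost its call in the deposited table (-0.22) and for its brightest probe (-0.83). Among the network genes named as changed, ADAM10 lost its call in 5, PTPN11 in 6, and CBLB and EGR1 in 4 of 21 alternatives. RHBDF2 lost its call in 11, CBL in 8, and SPRY4 and SPRED2 in 2 of 20. FSHR kept its call and direction in 16 of 21 alternatives and LHCGR in 7 of 20.

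Over all genes, 10332 calls after IVM, 66.1% of them higher, became 6378 (43.2% higher) under quantile normalisation, 17663 (83.3%) under normexp, 14768 (65.9%) in the deposited table, 6754 (48.3%) without dim genes, 8078 (56.5%) with all 20 arrays, and 6530 to 10989 without single arrays, the lowest without CC replicate 1. The median difference moved from 0.37 to 0.01 under quantile normalisation and to 0.55 under normexp.

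With the replicate number as a block, 8 members changed after IVM (TGFA, adjusted p = 0.058, lost its call), 24 other network genes, 6 members between cell types and 23 calls over pairs, and all gene calls fell to 7052. The block changed no member call between TH and GC. The slide as a block and the values within slides could not be run for CC after IVM, which fill a slide alone. As a random block, chosen after seeing the data, the slide gave 15312 calls over all genes, with a negative consensus correlation of -0.26. A random block cannot separate slide from IVM here either, so no conclusion on the slide is drawn from it. It is among the alternatives counted above for the members after IVM. Promoter motifs were not analysed here.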
